A study of Rattus norvegicus with 10 samples.

Results

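S100 genes encode small calcium-binding proteins, and 8 of them were followed here in A7r5, by its label a rat aortic smooth muscle line that was first made from embryos: S100a1, S100a4, S100a6, S100a8, S100a9, S100a10, S100a11 and S100b. The members were taken as every probe set whose platform annotation names a single gene that is among these 8. Each gene had 1 such probe set, which gave 8 of the 31042 probe sets and 8 of the 14217 named genes on the array. Cells had been stably transfected with an empty vector, with wild-type human BMPR2, or with BMPR2 that carried a labelled change in 1 domain. The labels conflict on the empty vector group: its titles and source names call the cells native, while its descriptions and transfection field give an empty vector, and it is named by the latter here. BMPR2 binds bone morphogenetic proteins (BMPs) as a type II receptor, and its mutation causes heritable pulmonary arterial hypertension. The CD mutant had 2579-2580delT in the cytoplasmic tail, the KD mutant C994T in the kinase domain and the ED mutant T354G in the extracellular domain. All 5 groups were kept in normoxia at about 50% confluence in DMEM with 10% serum, and each had 2 arrays. The labels name neither the vector's promoter nor the number of clones behind a group, and whether the 2 arrays of each group had separate cultures behind them is not stated either. The p-values then measure no more than the spread of these arrays, which may be technical.

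S100 proteins form dimers, bind calcium through EF-hand loops and then expose a surface that docks onto target proteins, among them annexins, non-muscle myosin and ion pumps. Some are also secreted and act through the receptors RAGE and TLR4. In the arterial wall S100A4, also called Mts1, is known as a protein of migrating and remodelling smooth muscle cells and as a marker of fibroblasts, S100A10 holds annexin A2 in a complex at the plasma membrane, and S100A8 and S100A9 are made chiefly by neutrophils and monocytes.

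By RefSeq's gene annotation of rat (GRCr8), 7 of the 8 genes lay on chromosome 2 and S100b on chromosome 20. S100a4 was separated from S100a6 by a single protein-coding gene, S100a5, S100a8 and S100a9 were direct neighbours, and S100a11 and S100a10 were direct neighbours at a distance from the others. The RefSeq promoter table held 5 of the 8 genes. Sequence upstream of the annotated start is shown for S100a4 and S100a6, near neighbours whose levels went apart on the KD mutant arrays, and for S100a11, which was higher there; capitals mark the TATA box letters TATAAA and the GC box letters GGGCGG. Each is 250 bases, 5' to 3' on the plus strand, ending at the base before the start, at chr2:178388279-178388528, chr2:178398287-178398536 and chr2:181874882-181875131 (GRCr8).
S100a4: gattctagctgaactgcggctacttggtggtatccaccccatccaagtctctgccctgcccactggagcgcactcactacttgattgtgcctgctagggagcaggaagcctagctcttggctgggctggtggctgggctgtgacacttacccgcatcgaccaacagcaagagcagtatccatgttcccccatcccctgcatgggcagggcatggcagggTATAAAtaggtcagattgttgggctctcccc
S100a6: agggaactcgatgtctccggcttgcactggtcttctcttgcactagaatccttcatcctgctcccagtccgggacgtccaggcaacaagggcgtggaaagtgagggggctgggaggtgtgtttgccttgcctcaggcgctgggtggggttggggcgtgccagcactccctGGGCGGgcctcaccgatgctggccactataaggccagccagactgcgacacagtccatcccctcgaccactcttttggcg
S100a11: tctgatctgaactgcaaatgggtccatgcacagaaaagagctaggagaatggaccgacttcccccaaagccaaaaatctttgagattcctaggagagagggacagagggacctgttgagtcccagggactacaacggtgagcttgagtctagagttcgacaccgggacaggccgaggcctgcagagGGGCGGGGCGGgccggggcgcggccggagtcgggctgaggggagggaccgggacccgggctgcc
The S100a4 window held TATAAA, beginning 31 bases before the start, and S100a9 held the same letters 42 bases before its start. Searched on both strands of the same 250-base window, these letters stood in 12.9% of 33469 promoters. GGGCGG was found in S100a6, 80 bases before the start, and in overlapping copies in S100a11, 64 and 59 bases before it, and in 30.5% of all promoters. The AP-1 letters TGANTCA (6.34% of all promoters) and the SMAD palindrome GGCGCC (8.69%) were in 0 of the 5 promoters. These matches describe the letters in the window and are not sites of binding.

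The deposited values are on the log2 scale after RMA, so a step of 1 is a doubling, and levels of different probe sets are not set against each other. Testing was limited to the 22502 probe sets at or above log2 4.82, which is the 40th percentile of all values, on at least 2 arrays. Of the 8 members, 5 passed: S100a1, S100a4, S100a6, S100a10 and S100a11. S100a8, S100a9 and S100b stayed under that level on all 10 arrays. "Changed", "rose" and "fell" mean an adjusted p under 0.05 in limma over all tested probe sets, and SE stands for limma's moderated standard error.

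**Figure D1:**
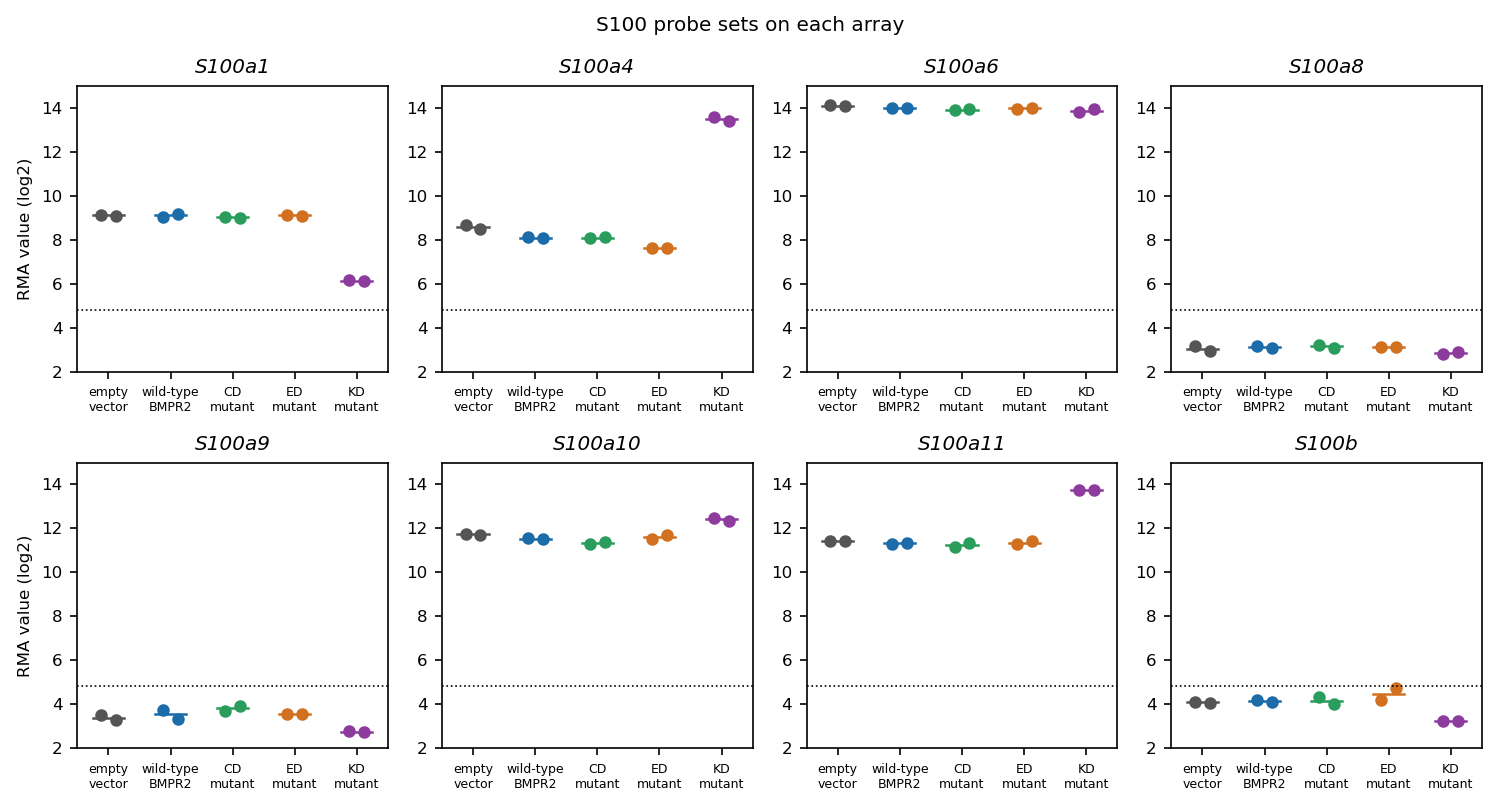
The log2 RMA value of each S100 probe set (y axis, 1 panel a gene) on the 2 arrays of each group (points; bars are group means; the dotted line is the filter level of 4.82). S100a4 is highest on the KD mutant arrays, at 13.58 and 13.43, and lowest on the ED mutant arrays, at 7.63 and 7.65, while S100a8, S100a9 and S100b lie under the dotted line throughout.

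The 2 arrays labelled KD mutant stood apart, and results on them are given separately. They correlated with the remaining 8 at a Pearson r of 0.709 to 0.719 over probe sets, where those 8 reached 0.992 to 0.996 among themselves. Markers were mixed within each list. On the 8 arrays 6 to 8 of 12 smooth muscle genes reached the filter level: Smtn read 10.33 to 10.48, Myh11 6.55 to 7.13 and Acta2 6.15 to 6.41, while Tagln, at 4.82 to 5.19, lay at that level and Cnn1, at 3.98 to 4.57, below it. Of 12 epithelial genes 9 or 10 reached it, among them Cdh1 at 9.22 to 10.27 and Krt18 at 11.26 to 11.82, whereas Epcam, at 3.63 to 3.89, and Cldn4, at 3.24 to 3.51, did not. On the KD mutant arrays Tagln (11.15 and 11.51) and Acta2 (9.05 and 9.72) were higher and Smtn (8.05 and 8.62) lower than on the other 8, and Cdh1 (6 and 5.74) was lower and Krt7 (11.84 and 12.03 against 7.07 to 7.62) higher. Whether the KD mutant arrays came from another line, or whether any array is mislabelled, was not tested, so each difference below is one between arrays that carry these labels.

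S100a4, which binds non-muscle myosin and promotes cell motility, was the member that differed most among the other 4 groups. It read 8.68 and 8.5 with empty vector, 8.13 and 8.07 with wild-type BMPR2, 8.1 and 8.11 for the CD mutant, then 7.63 and 7.65 for the ED mutant. Both ED mutant arrays lay below all of the others, both empty vector arrays lay above them, and wild type and CD mutant overlapped. S100a4 fell 1.93-fold in the ED mutant against empty vector, a log2 difference of -0.95 (SE 0.11, 95% interval -1.18 to -0.72, adjusted p = 0.00247 in limma). It was the 1 of the 5 tested members called in this comparison, in which 0.529% of all tested probe sets were called and 0.16% fell. Without empty vector replicate 1 the difference was -0.858 and no longer passed (adjusted p = 0.0523 in limma), and over all 13 alternatives the adjusted p ran from 1.5e-05 to 0.0523.

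The steps between were smaller and did not pass the test. Against empty vector, S100a4 was 0.49 lower with wild-type BMPR2 (SE 0.11, interval -0.72 to -0.26, adjusted p = 0.256 in limma) and 0.49 lower in the CD mutant (interval -0.72 to -0.25, adjusted p = 0.181). The ED mutant stood 0.45 below wild type (interval -0.69 to -0.22, adjusted p = 0.212) and 0.46 below the CD mutant (interval -0.69 to -0.23, adjusted p = 0.127). The CD mutant and wild type differed by 0.01 (interval -0.22 to 0.24, adjusted p = 1). In the order of levels, empty vector, wild type with CD mutant, and ED mutant, no neighbours therefore differed beyond the test, and the ends did. These comparisons share their arrays, so they are not separate observations of S100a4. With an intensity trend and robust variance in limma, S100a4 passed in each of these but CD mutant against wild type, with adjusted p of 0.027 and 0.015 for wild type and CD mutant against empty vector and 0.0208 and 0.0131 for ED mutant against wild type and CD mutant; that setting called 68, 144, 142 and 287 of 22502 probe sets. With the KD mutant arrays left out of filter and fit, the ED mutant still lay 0.95 below empty vector (adjusted p = 0.002 in limma), and ED mutant against CD mutant came to an adjusted p of 0.0583.

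Other measures differed on the same arrays. The summed level of 12 measured epithelial markers was 12.69 to 12.72 (log2 of summed signal) in the ED mutant, against 12.22 to 12.24 with empty vector, 12.26 to 12.27 with wild type and 12.13 to 12.21 in the CD mutant, with 9 or 10 of the 12 at or above the filter level on each of these arrays. Of the 10 tested, 1 rose, Cdh1, the gene of E-cadherin, from 9.22 and 9.26 with empty vector to 10.27 and 10.23, by 1.01 (adjusted p = 0.00364 in limma). The striated muscle list, 11 measured genes, summed to 9.46 to 9.49 in the ED mutant and 8.79 to 8.9 with empty vector, with 7 against 7 or 8 at or above the filter level. Its 1 called gene of 8 tested was Acta1, the skeletal muscle actin, which rose from 6.42 and 5.99 to 8.39 and 8.38, by 2.18 (adjusted p = 0.000273 in limma). The median difference of the 8 was 0.05, so the sum does not describe a shift of the whole list. Smooth muscle markers summed to 11.04 to 11.08 in the ED mutant and 10.93 to 10.94 with empty vector. Of their 10 tested genes 0 were called, with a median of 0.03. The fibroblast and matrix list, for which S100a4 is often used as a marker, was 9.54 to 9.56 in the ED mutant and 9.49 to 9.51 with empty vector, with 6 or 7 of 12 at or above the filter level. Poly-A control transcripts averaged 8.39 and 8.42 in the ED mutant and 8.12 and 7.86 with empty vector, and the 3' to 5' difference of Gapdh was 0.37 and 0.38 against 0.41 on both empty vector arrays. The part of these markers and controls in the S100a4 difference was not tested. In bulk RNA, fewer cells of a type and less RNA per cell cannot be told apart.

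**Figure D2:**
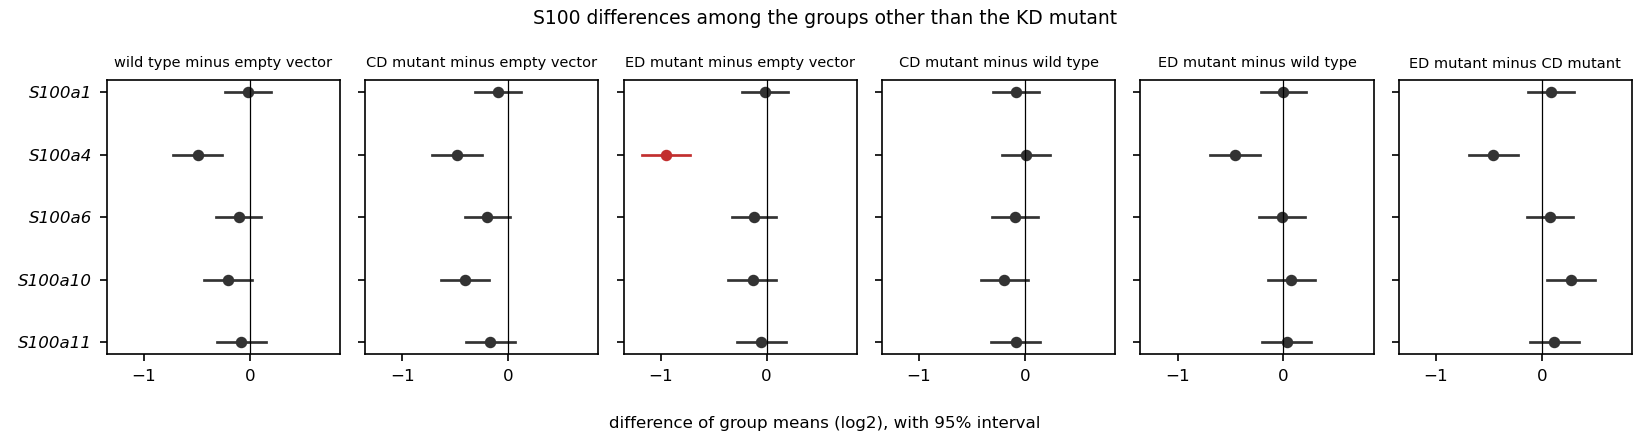
Difference of group means (x axis, log2; points) with its 95% interval (lines) for the 5 tested S100 probe sets (y axis) in each comparison that leaves out the KD mutant. The red point is the 1 difference that passed the adjusted test, S100a4 in the ED mutant minus empty vector, at -0.95.

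Among named genes on the tested probe sets, the 3 whose values over the 8 arrays followed S100a4 most closely were Mapk6, an atypical MAP kinase, with a Pearson r of 0.994, Lsm3, a splicing factor subunit, with 0.986, and Gja1, the gene of a connexin found in gap junctions, with 0.985. These describe 8 arrays in 4 groups of 2 that share a cell line and were picked as the highest of all tested named genes. Myh9, the non-muscle myosin heavy chain bound by S100A4, had an r of 0.85 to S100a4 and ranged from 9.5 to 9.77. Gja1 read 6.4 and 6.2 with empty vector, 5.68 and 5.59 with wild type, 5.74 and 5.78 for the CD mutant, then 5.33 and 5.22 for the ED mutant. Its fall in the ED mutant against empty vector, by 1.03, passed the test (adjusted p = 0.00189 in limma), while Mapk6, at -0.51, and Lsm3, at -0.34, did not (adjusted p = 0.0547 and 0.171). The 3 genes were picked for following S100a4 on these same arrays, so a fall there follows from the choice and is no support. The other 2 probe sets of Gja1 varied less over these arrays, from 5.31 to 5.68 and, below the filter level, from 3.73 to 4.32. On the KD mutant arrays Gja1 was also bright, at 10.87 and 11 by the first probe set, and the others lay 0.59 and 0.69 below the mean of the 8 arrays.

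**Figure D3:**
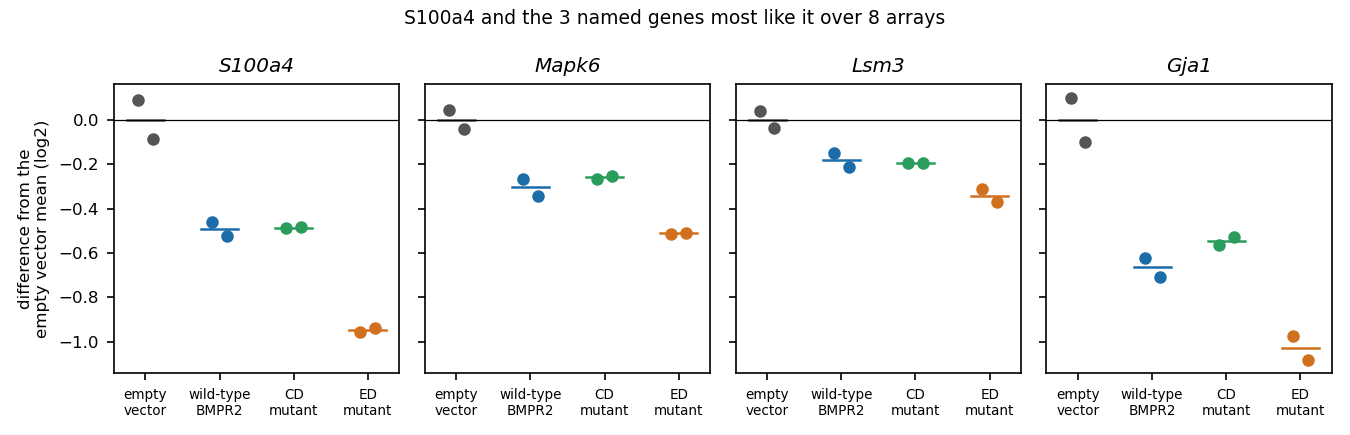
Each array's log2 difference from the empty vector mean (y axis; points, with bars for group means) for S100a4 and the 3 named genes most like it over 8 arrays, by group (x axis). All 4 genes are lowest on the ED mutant arrays, and wild type and CD mutant lie between these and empty vector. The 3 genes were picked for this likeness on the same arrays, so the shared order is no separate result.

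S100a10, the partner of annexin A2 that also carries plasminogen to the cell surface, varied less. It stood at 11.77 and 11.72 with empty vector, 11.55 and 11.53 with wild-type BMPR2, 11.3 and 11.38 for the CD mutant, then 11.54 and 11.69 for the ED mutant. The CD mutant arrays were the lowest and the empty vector arrays the highest, and the ED mutant overlapped with wild type. The CD mutant lay 0.41 below empty vector (SE 0.1, interval -0.63 to -0.18), which did not pass (adjusted p = 0.246 in limma) except with an intensity trend and robust variance (adjusted p = 0.00742). Against wild type the CD mutant was 0.2 lower (interval -0.42 to 0.03, adjusted p = 1) and the ED mutant 0.08 higher (interval -0.15 to 0.3, adjusted p = 0.941). In all, 0 of the 5 tested members changed between CD mutant and empty vector, where 0.111% of all tested probe sets did. The arrays of those 2 groups did not overlap for any of the 5, each lower in the CD mutant, which held for 20.6% of all tested probe sets.

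Anxa2, which encodes annexin A2, followed the same order by its brighter probe set. It read 12.38 on both empty vector arrays, 12.2 and 12.14 with wild type, 11.94 and 12.03 for the CD mutant, then 12.24 and 12.17 for the ED mutant. The CD mutant lay 0.39 below empty vector (interval -0.61 to -0.17, adjusted p = 0.247 in limma), close in size to the 0.41 of S100a10. Over the 8 arrays the Pearson r of S100a10 and Anxa2 was 0.92, a description of 4 groups of 2 arrays of a single cell line. How many other genes reached such an r was not counted, and those named at the end of this paragraph lay above it. The dimmer Anxa2 probe set ranged from 4.92 to 5.37. The named genes closest to S100a10 over the same 8 arrays were Uqcrfs1 (r = 0.974), Taf13 (r = 0.968) and Id2 (r = 0.966). Uqcrfs1 is a subunit of mitochondrial complex III, and Id2 an inhibitor of differentiation and BMP target. They were picked as the highest of all tested named genes, so their likeness is no separate result. On the KD mutant arrays S100a10, Uqcrfs1 and Taf13 lay 0.86, 0.95 and 3.34 above the mean of the 8 arrays. Id2 lay 2.23 below it there.

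**Figure D4:**
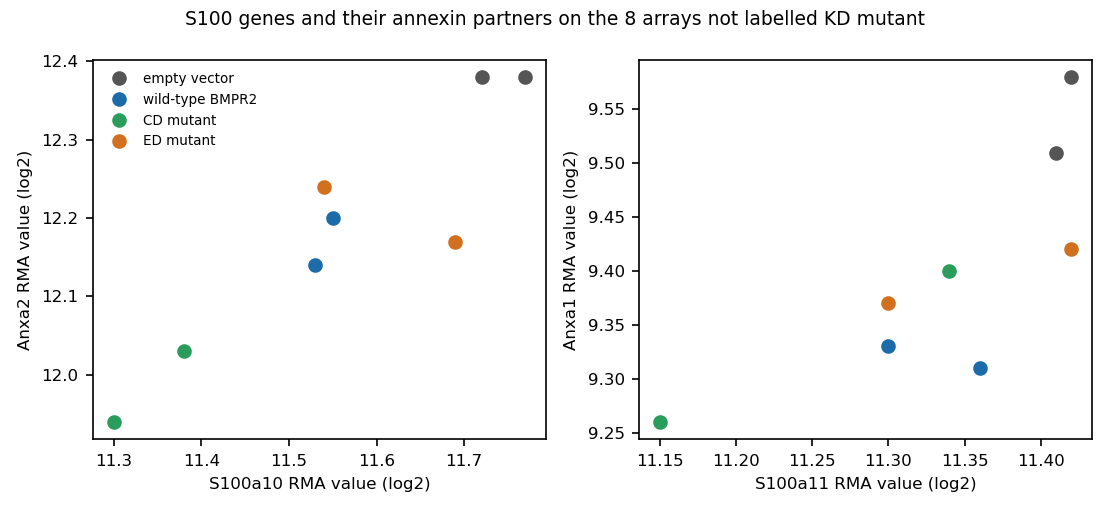
RMA values (log2, both axes) of S100a10 against Anxa2 and of S100a11 against Anxa1, with 1 point for each of the 8 arrays not labelled KD mutant, coloured by group. For S100a10 and Anxa2, the empty vector points lie at the upper end, near 12.38 on the y axis, and the CD mutant points at the lower end, at 11.94 and 12.03.

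S100a11, which binds annexin A1 and takes part in membrane repair, stayed between 11.15 and 11.42 on the 8 arrays. Its arrays read 11.41 and 11.42 with empty vector, 11.3 and 11.36 with wild type, 11.15 and 11.34 for the CD mutant, then 11.3 and 11.42 for the ED mutant. Wild type and CD mutant lay below empty vector without overlap, and the ED mutant overlapped with all 3. The largest difference, CD mutant against empty vector, was -0.17 (interval -0.4 to 0.06, adjusted p = 0.717 in limma). Anxa1 was 9.51 and 9.58 with empty vector and 9.26 to 9.42 on the other 6 arrays, with an r of 0.78 to S100a11 over the 8 arrays. Psmd5 (r = 0.993), Yme1l1 (0.977) and Sppl2a (0.967) came closest to S100a11, the last 2 with probe sets below the filter level on all of these arrays. These too were picked as the highest of all tested named genes.

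S100a6, or calcyclin, which binds the ubiquitin ligase adaptor CacyBP, was bright on every array. It ranged from 13.89 to 14.13 over the 8 arrays, with 14.13 and 14.1 under empty vector and 13.89 and 13.95 in the CD mutant at the ends. Its CD mutant value was 0.2 below empty vector (interval -0.41 to 0.02, adjusted p = 0.618 in limma) and its ED mutant value 0.12 below (interval -0.33 to 0.09, adjusted p = 0.726). At this brightness RMA values approach the top of the array's range, which was 14.6 here, so differences may be compressed; this was not tested. Cacybp, by the brighter of its 2 probe sets, ranged from 8.77 to 9.06 with an r of 0.18 to S100a6 over the 8 arrays. The genes closest to S100a6 were Tlnrd1 (r = 0.989), Oip5-as1 (0.978) and Cgref1 (0.975), again picked as the highest of all tested named genes.

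S100a1, which in heart and skeletal muscle tunes the ryanodine receptor and the calcium pump SERCA2, was flat among these 4 groups. It read 9.14 and 9.1 with empty vector, 9.06 and 9.16 with wild type, 9.06 and 8.99 for the CD mutant, then 9.14 and 9.08 for the ED mutant. Wild type and ED mutant overlapped with empty vector, and the CD mutant lay just below. Its 6 differences lay between -0.1 and 0.08, with intervals that reached no further than -0.31 and 0.3 and adjusted p of 0.865 to 1 in limma. Atp2a2, which encodes SERCA2, stayed between 11.59 and 11.92. The genes closest to S100a1 over the 8 arrays were Ctsa (r = 0.956), Mmp24 (0.941) and Plxnb1 (0.918). They were picked as the highest of all tested named genes. Since S100a1 stayed between 8.99 and 9.16, these r describe very small differences. With the KD mutant arrays included, r was -1, 0.05 and 0.98.

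Between wild-type BMPR2 and empty vector 0 of the 5 tested members changed, where 0.0133% of all tested probe sets did. All 5 were lower with wild type by 0.01 to 0.49, and 4 did not overlap, against 21.7% of all tested probe sets that were lower without overlap. Between CD mutant and wild type 0 members changed, as did 0% of all tested probe sets, and 784 of these had an unadjusted p under 0.05 in limma. Between ED mutant and wild type 0 members changed (0.164% of all), and between ED and CD mutant 0 (0.351% of all). In those last 2 comparisons 1 and 2 members had an unadjusted p under 0.05, as did 1721 and 2113 of the 22502 probe sets, and in the first, wild type against empty vector, 1 and 1471.

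S100a8, S100a9 and S100b were below the filter level and were tested only in the alternative without a filter. S100a8, a subunit of calprotectin, read 2.95 to 3.24 on the 8 arrays, then 2.81 and 2.88 for the KD mutant. S100a9, its partner, read 3.27 to 3.94 and 2.81 and 2.72. S100b, a protein of glia and melanocytes that also binds RAGE, read 4 to 4.74 and 3.26 and 3.22, with its highest value on ED mutant replicate 2. Without a filter they were called in 11 of 30 comparisons, all 11 lower on the KD mutant arrays, at levels where differences are not measured exactly. With the filter, 89.4% to 89.7% of all tested probe sets were called in the comparisons with the KD mutant, so these 11 calls say little. The share of all probe sets called without a filter is not given here. Markers of the cells that usually make them were measured beside them: the leukocyte genes Ptprc and Csf1r read 3.3 to 3.52 and 4.31 to 4.73 on the 8 arrays, both below the filter level, and 7 or 8 of 11 measured neutrophil and macrophage markers reached that level. The summed level of these 11 was 8.64 to 8.8 on the 8 arrays and 9.29 to 9.34 on the KD mutant arrays, where 3 reached it. Of the 7 tested, 6 fell and 1 rose against wild type (median -1.15); the one that rose was Cd14, from 5.8 and 5.86 to 8.9 and 8.84. For the glial list of 8 measured genes it was 8.97 to 9.07 and 7.67 to 7.76. Their part in the values of S100a8, S100a9 and S100b was not tested.

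Of the receptors of secreted S100 proteins, Ager, which encodes RAGE, lay between 6.3 and 6.63 on the 8 arrays, and Tlr4 between 3.58 and 3.99, below the filter level. Ager did not pass the test in a comparison without the KD mutant, and for Tlr4 such comparisons lie below the filter level and show nothing. Over the list of 28 partners and receptors, 26 had a probe set and 24 were tested. With wild type against empty vector 0 changed. In the CD mutant against empty vector 1 fell, Plaur, the urokinase receptor, from 9.99 and 9.87 to 9.21 and 9.26, by 0.7 (adjusted p = 0.0372 in limma). In the ED mutant against empty vector 1 rose, Mapt, the microtubule protein tau, from 8.51 and 8.58 to 9.19 and 9.35, by 0.73 (adjusted p = 0.0107), and it also stood higher than in the CD mutant, by 0.64 (adjusted p = 0.027). The list's median difference against empty vector was -0.01 with wild type, -0.03 for CD and -0.01 for ED mutant, and that of all tested probe sets 0 in each. Of the other Mapt probe sets, 1 rose in the ED mutant against empty vector, by 0.56 (adjusted p = 0.0344), and the other was 0.38 higher without passing (adjusted p = 0.212). A second Plaur probe set was below the filter level, between 4.18 and 4.56.

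Of the annexins, 0 of 10 tested genes were called in each of the 6 comparisons among these groups, with medians of -0.09 to 0.14. Since 0% to 0.529% of all tested probe sets were called there, a count of 0 in a list of this size says little. The lowest adjusted p against empty vector belonged to Anxa2 in the CD mutant (0.247) and to Anxa7 (0.272) and Anxa11 (0.292) in the ED mutant, the latter at 0.32 and 0.37 above. Of other EF-hand calcium proteins 0 of 21 tested were called in each of these 6 comparisons, against the same background. The nearest were Tnnc1, the slow and cardiac troponin C, 0.58 lower in the CD mutant than with empty vector (adjusted p = 0.184 in limma), and the calpain gene Capn1, 0.37 higher in the ED mutant (adjusted p = 0.184). The list of S100 genes outside the 8 members gave the same count, 0 of 6 tested. It includes S100pbp, which encodes an S100P-binding protein and not an S100 protein. S100a16 was 0.28 lower in the ED mutant than with empty vector (adjusted p = 0.449), and S100a3, which lies beside S100a4 on the chromosome, 0.13 lower (adjusted p = 0.758). S100a5, between S100a4 and S100a6, ranged from 4.63 to 5.37.

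On the arrays labelled KD mutant, S100a4 read 13.58 and 13.43, far above the 7.63 to 8.68 of the other 8. Its log2 difference from wild type was 5.4, which is 42.3-fold (SE 0.11, interval 5.17 to 5.63, adjusted p = 1.41e-12 in limma). S100a11 read 13.75 and 13.77, which was 2.43 above wild type, or 5.4-fold (adjusted p = 6.59e-10), and S100a10 12.48 and 12.36, 0.88 above wild type (adjusted p = 4.31e-06). S100a1 went down to 6.18 and 6.12, a fall by 2.96 or 7.79-fold (adjusted p = 6.02e-11). For all 4, the KD mutant arrays lay outside the range of the other 8 arrays. S100a4 and S100a11 read close to the top of the array's range there, which was 14.6. Their differences may therefore be compressed, as for S100a6, which was not tested.

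Against wild type 4 of the 5 tested members changed, 3 up and 1 down, where 89.6% of all tested probe sets changed, 34.5% up and 55.1% down, so a count of members called says little here. The median of all tested probe sets was 0.56 lower on the KD mutant arrays in the deposited values, 0.49 lower after quantile normalization and 0.16 lower after centring each array on its median. S100a4, S100a10 and S100a11 were higher and S100a1 lower under each of these scalings. S100a10 was 0.54 higher after quantile normalization and 1.28 after centring, so its size depended on the scaling. S100a6 did not keep a direction: it read 13.82 and 13.94, 0.13 below wild type in the deposited values (adjusted p = 0.232), 0.16 below after quantile normalization and 0.27 above after centring (adjusted p = 0.0248). Against empty vector it was called lower in the deposited values, by 0.23 (adjusted p = 0.0406), and stood 0.151 above after centring. That call was lost without empty vector replicate 1 (adjusted p = 0.138 in limma), without empty vector replicate 2 (0.0884) and without KD mutant replicate 1 (0.145). In that comparison 5 of the 5 tested members changed, where 89.7% of all did. Against the CD and the ED mutant 4 of 5 changed each time, where 89.6% and 89.4% of all did.

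**Figure D5:**
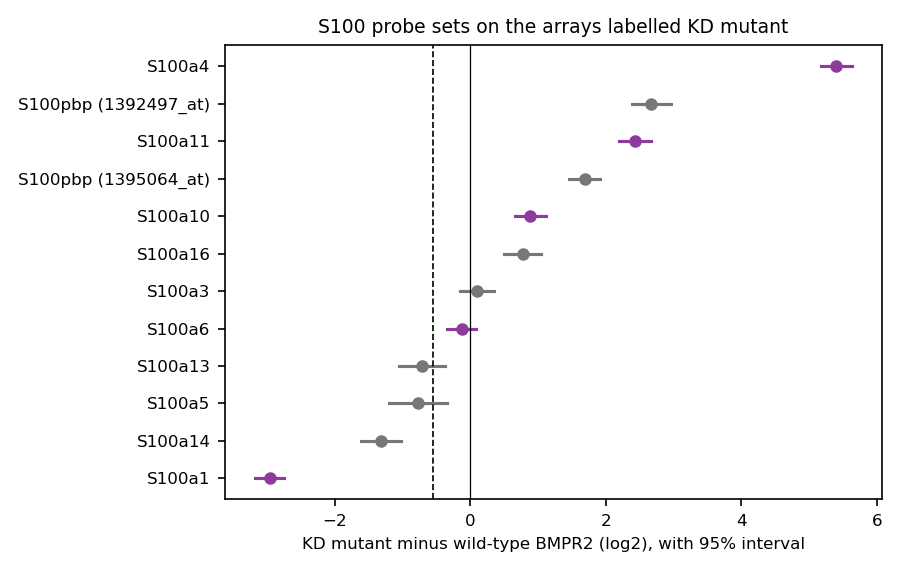
KD mutant minus wild-type BMPR2 (x axis, log2; points with 95% intervals as lines) for the tested members (purple) and the tested genes of the S100 list outside them (grey). S100pbp, which encodes an S100P-binding protein and not an S100 protein, has 2 probe sets, shown with their identifiers. The dashed line is the median of all tested probe sets, at -0.56. S100a4 is at 5.4 and S100a1 at -2.96, and the signs of S100a6 and S100a3 turn with the scaling.

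The related lists also held genes on both sides on these arrays, against the 89.6% of all tested probe sets that were called. The share of calls that were higher was 38.5% over all tested probe sets, 36.3% after quantile normalization and 47% after centring. The list of S100 genes outside the members had 6 tested genes. Of these, S100pbp encodes an S100P-binding protein and not an S100 protein. Over the 6, 2 were higher and 3 lower than in wild type. This became 3 higher and 1 lower after centring and 1 and 1 after quantile normalization, where the 1 higher was S100pbp. In the deposited values S100pbp rose by 2.67 and S100a16 by 0.77. S100a14, an epithelial S100 protein, fell by 1.32 to 4.02 and 3.62, below the filter level. Of the 10 tested annexins 8 were higher and 2 lower (7 and 2 after quantile normalization, 8 and 2 after centring), with a median of 2.07 against -0.56 for all tested probe sets. Anxa5 rose by 4.55 and Anxa1 by 3.88, to 13.2 and 13.19, and Anxa2 by 1.5, to 13.6 and 13.74, although its dimmer probe set lay 0.64 below the mean of the other 8 arrays. Anxa4 fell by 1.57. Anxa9 also fell, from 5.42 and 5.21 in wild type to 3.76 on both KD mutant arrays. This is below the filter level, so the size of its fall is not measured.

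Among partners and receptors 11 were higher and 11 lower (10 and 11 after quantile normalization, 13 and 9 after centring), so that 91.7% were called against 89.6% of all, with a median of -0.08. Myh9, the non-muscle myosin heavy chain bound by S100A4, rose by 1.64 to 10.94 and 11.56, and its relative Myh10 by 4.75. Ager fell by 1.58, to 4.67 and 4.88. Tlr4 read 6.09 and 6.28 against 3.79 and 3.93 in wild type, below the filter level, so the size of its difference is not measured. Tlr4 and Plat, of the 24 tested, did not pass the filter without the KD mutant arrays, so their calls there are no support for the count. Ryr1, a ryanodine receptor, rose by 2.38, whereas Atp2a2 was 0.29 lower in the deposited values and 0.11 higher after centring. Of the other EF-hand proteins 16 were higher and 4 lower (16 and 3 after quantile normalization, 17 and 1 after centring), among them the secretory pathway proteins Calu, at 12.65 against 4.12 in wild type, and Rcn1, at 10.12 against 3.27, both below the filter level in wild type. These and Tnnc2, 3 of the 21 tested, did not pass the filter without the KD mutant arrays. Smooth muscle markers summed to 11.99 to 12.35 on the KD mutant arrays against 10.93 to 11.08 on the other 8. At or above the filter level were 10 of 12 against 6 to 8. Among the 10 tested, 5 were higher and 3 lower than in wild type (6 and 3 after quantile normalization, 7 and 3 after centring). The sum was mostly Tagln on the KD mutant arrays, at 11.15 and 11.51, and mostly Smtn on the other 8, at 10.33 to 10.48. Fibroblast and matrix markers summed to 14.79 to 14.94 against 9.45 to 9.6, with 9 of 12 against 6 or 7 at or above the filter level. Of the 10 tested, 7 were higher and 2 lower than in wild type. Col1a2, Mfap5 and Postn of this list, and Cnn1 and Itga8 of the smooth muscle list, did not pass the filter without the KD mutant arrays. Their calls are no support for a count. Epithelial markers summed to 12.24 to 12.38 against 12.13 to 12.72, and 6 of 12 reached the filter level against 9 or 10. Most of that sum on the KD mutant arrays was Krt7, at 11.84 and 12.03. Of the 10 tested epithelial genes, 9 were lower than in wild type and 1, Krt7, higher (median -1.43 against -0.56 for all tested probe sets). Poly-A controls averaged 7.38 and 6.78 against 7.58 to 8.75, hybridization controls 10.65 and 10.72 against 11.38 to 11.56, and the 3' to 5' difference of Gapdh was 0.04 and 0.3 against 0.37 to 0.43. The part of these in the S100 differences was not tested, and the construct and whatever else set these 2 arrays apart cannot be told apart.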

How the data were processed

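Total RNA of A7r5 cells was labelled with biotin and read on 10 Affymetrix rat arrays, 2 a group, per the labels. The authors deposited log2 values, 1 for each probe set, and the submitters' processing notes name RMA. The sources used here state neither its version nor which arrays were processed as 1 set. Array medians were 5.31 to 5.35 on 8 arrays and 4.94 to 4.95 on the KD mutant arrays. RMA corrects background, normalizes arrays and compresses differences at low signal. No detection calls were used, so no probe set is called present or absent.

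Of 31099 probe sets, 57 controls were left out; 20826 of the rest have 1 gene in the platform annotation, 436 several and 9780 none, and 20758 symbols were updated through Entrez identifiers with RefSeq (GRCr8). The filter left 22502. limma 3.58.1 in R 4.3.3 was fitted to all 10 arrays with 5 group means (5 residual and 11.4 moderated degrees of freedom), with two-sided p-values adjusted by Benjamini-Hochberg over all tested probe sets of a comparison. The fit was tested on simulated data. For lists, a gene was its brightest probe set on average. Named were all members, up to 4 genes a list with the lowest adjusted p, and the 3 genes most correlated with each tested member. Myh9, Myh10, Tlr4, Ager, Atp2a2, Ryr1, Cacybp, S100a3, S100a5, Anxa2, Anxa4 and Anxa9 on the KD mutant arrays, the other probe sets of Anxa2, Plaur, Mapt and Gja1, and the cell type genes were named after their values were seen. The members and lists were chosen with earlier results of these data known. Alternatives were the filter, the scaling, limma's variance model, a 1.5-fold minimum, the arrays in the fit, each array left out, and the replicate number as a block. The number of arrays limits the precision.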

Additional observations from a re-analysis of the deposited data

How the results depend on the processing

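Across 13 alternatives for a comparison without the KD mutant and 12 for one with it, the counts of S100 members called mostly held: 118 of 126 stayed within 1.5 times. With an intensity trend and robust variance, the count went from 0 to 1 for wild type against empty vector, ED mutant against wild type and ED against CD mutant (S100a4 each time), and from 0 to 2 for CD mutant against empty vector (S100a4 and S100a10). Leaving out each array in turn gave 0 to 1 for ED mutant against empty vector, with 0 without empty vector replicate 1. Without a filter, the KD mutant against wild type, CD mutant and ED mutant gave 7 in place of 4, since S100a8, S100a9 and S100b were then called lower. None of those 3 was called without the KD mutant. With the filter, 89.4% to 89.6% of all tested probe sets were called in those comparisons with the KD mutant, so the larger count says little. The matching share without a filter is not given here. Of 630 single values, 612 kept their side of the threshold without a called value turning sign, 7 lost and 7 gained the call, and 17 uncalled ones changed sign. Centring each array on its median reversed S100a6 on the KD mutant arrays, to 0.364 against CD mutant, 0.27 against ED mutant, 0.151 against empty vector and 0.269 against wild type; the alternative itself adds the difference of array medians. Replicate numbers recur in every group, but same-numbered arrays' deviations from group means correlated at only -0.0287 to 0.143, over 0.1 in 1 of 10 pairs of groups. Any shift shared by number was therefore small, but this cannot show whether same-numbered arrays were handled together. As a replicate block the numbers changed no call of a member. S100a4 in the ED mutant against empty vector came to -0.946 (adjusted p = 0.00485 in limma), and every count of members stayed as reported. With 2 arrays a group, the standard error of a member's difference was 0.097 to 0.11.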
